A study of Mus musculus with 6 samples.

Results

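The 34 genes described here encode enzymes of the tricarboxylic acid (TCA) cycle, of pyruvate entry into it and of glutamine and glutamate use. They were chosen by name, as rows of the array table that carry a single gene symbol on a fixed list, with the row of highest mean signal taken for each symbol. All 34 of 34 symbols were found, among 18620 symbols in 21448 rows, and PC was the sole symbol with a further row. The arrays held 3 libraries labelled anti-PD-1 and 3 labelled control. Anti-PD-1 libraries came from subcutaneous tumours grown from LLC (Lewis lung carcinoma), a line derived from a lung tumour of a mouse, in animals dosed with an antibody to PD-1, the checkpoint receptor that restrains T cells. Control libraries came from such tumours without that antibody. Per the labels' protocols, 1000000 LLC cells in Matrigel were placed in the left flank, and 250 µg of the PD-1 antibody or of an IgG2a isotype antibody was injected intraperitoneally, repeated after each 3 days. The design text of the series instead speaks of LLC cells collected 7 days after treatment and of untreated cells. The strain, sex and age of the mice are not given in the sources used here, and whether each replicate was its own animal is not stated, so the p-values reflect the variation among these 6 libraries, part or all of which may be technical.

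Properties of the deposited table bear on every value below. The headers name a mouse array, but all 34 enzyme rows carry human Ensembl transcript accessions, and the chromosome in the array identifier equals that in the chromosome column for 5 of the 34. Symbols are therefore printed as the table spells them and do not settle the species. Direction rests on the sample labels. In the authors' deposited table, the averages named C and P lay within 0.05 of the mean, the median or the one-step Tukey biweight (an average that gives outlying values less weight) of the signals of the opposite letter for all 34 enzymes, and of their own letter for 3. Several lay further than that from the plain mean, as for PDK4, where the average named C in the authors' deposited table was 6.33 and the anti-PD-1 signals had a mean of 6.54 and a median of 6.34. Each rise given here would be a fall if those averages are named correctly. In 108 of all rows (0.504%) the signals gave neither set of averages or SDs, and 0 of the 34 enzymes were among them. Correlations over rows ran from 0.9955 to 0.9963 within groups and from 0.9808 to 0.9823 between groups.

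Tumour tissue was checked against markers of cells it could hold. None of 7 T cell markers (0) and none of 6 endothelial markers (0) had a mean signal above the median of all rows, 7.74 on the log2 scale, whereas 4 of 5 epithelial markers did. Of 7 macrophage and monocyte markers 2 lay above it, and CD14 was higher in anti-PD-1 libraries (1.19 ± 0.17, SE). CD14 was the 1 marker of that list past the test. Of the 7 differences 4 were positive and 3 negative, CSF1R (-0.42) and CD163 (-0.41) among the latter. The summed log2 signal of that list overlapped between groups, at 9.855 to 10.325 in anti-PD-1 libraries and 9.965 to 10.164 in control libraries. The epithelial markers KRT8 (0.30) and EPCAM (-0.60) and the T cell markers CD5 (0.37) and CD4 (-0.46) also passed, and 0 of 6 endothelial and 0 of 5 red blood cell markers did. KRT8 did not pass without any 1 library (adjusted p from 0.0625 to 0.0827), and CD5 passed in 2 of the 6 such fits, those without control replicate 1 or anti-PD-1 replicate 2 (up to 0.0763 in the others). The summed log2 signal of the T cell list was 7.70 to 7.81 in anti-PD-1 libraries and 7.50 to 7.81 in control libraries, and that of the endothelial list 7.85 to 7.91 in anti-PD-1 libraries and 7.51 to 7.80 in control libraries. Of 6 fibroblast markers 2 lay above the median of all rows. The log2 of the summed signal of the 6 was 13.9 to 14.0 in anti-PD-1 libraries and 11.5 to 12.2 in control libraries. COL1A2 (3.15) was the 1 marker past the test. That sum rests mostly on COL1A1 and COL1A2, with mean signals of 11.28 and 12.11 over the 6 libraries. The table gives the COL1A1 row only the short stretch from 50200287 to 50200367 of chromosome 17, on the plus strand. Whether that row reads the collagen transcript was not tested. PDGFRA, DCN, LUM and FAP lay at 5.23, 5.73, 5.06 and 4.12. Of the 6 differences 5 were positive and 1 negative (FAP, -0.58). Among 10 proliferation markers 8 were lower and 0 higher in anti-PD-1 libraries, with a summed log2 signal of 16.3 to 16.5 there and 17.6 to 17.7 in control libraries. The part of these markers in the results below was not tested.

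The TCA cycle runs in the mitochondrial matrix and oxidises acetyl-CoA, passing electrons to the respiratory chain and supplying citrate, oxoglutarate and oxaloacetate for synthesis. Pyruvate enters as acetyl-CoA through the pyruvate dehydrogenase complex, which kinases switch off and phosphatases switch on, or as oxaloacetate through pyruvate carboxylase. Glutamine enters as glutamate and then oxoglutarate, a route that many cultured tumour cells use to refill the cycle.

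Most of the 34 enzymes were lower in anti-PD-1 libraries, by small amounts. Of the 34, 20 fell, 4 rose and 10 did not pass an adjusted p of 0.05 in limma, a linear model with moderated variances fitted to all rows, with Benjamini-Hochberg adjustment. That is 70.6% of the enzymes, against 29.8% of all rows, with 58.8% lower, against 15.1% of all rows, and 11.8% higher, against 14.7% of all rows. The enzymes are bright: 25 of 34 lay above the 75th percentile of mean signal, where 50.1% of rows passed and 27.0% were lower. Their median difference, anti-PD-1 minus control, was -0.32 on the log2 scale, against 0.01 over all rows. Groups did not overlap for 28 enzymes, 23 lower and 5 higher, against 43.5% of all rows (21.9% lower and 21.7% higher). Most of the 5361 rows above the 75th percentile of mean signal did not overlap either, with 2090 lower, 1813 higher and 1458 overlapping. Of the 25 enzymes above it, 16 were lower, 5 higher and 4 overlapping. Whether the enzymes exceed bright rows in this was not tested. Bulk signals cannot tell fewer cells of a type from less RNA per cell.

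Sizes were modest. DLAT, PDK4, PDP1, PDP2, IDH3A, SUCLG1 and PC, 7 enzymes in all, passed with a change of at least 1.5-fold (17.3% of all rows did), and of these PDK4 alone reached 2-fold (7.64% of all rows did). At an adjusted p under 0.01 there were 11 enzymes (18.0% of all rows). Spread between libraries was small, with a median SD of 0.07 in the anti-PD-1 group and 0.08 in the control group over the enzymes, against 0.13 and 0.15 over all rows. Without each library in turn, 14 of the 24 calls passed in all 6 fits. In the authors' deposited table the same 24 enzymes had a false discovery rate under 0.05.

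**Figure D1:**
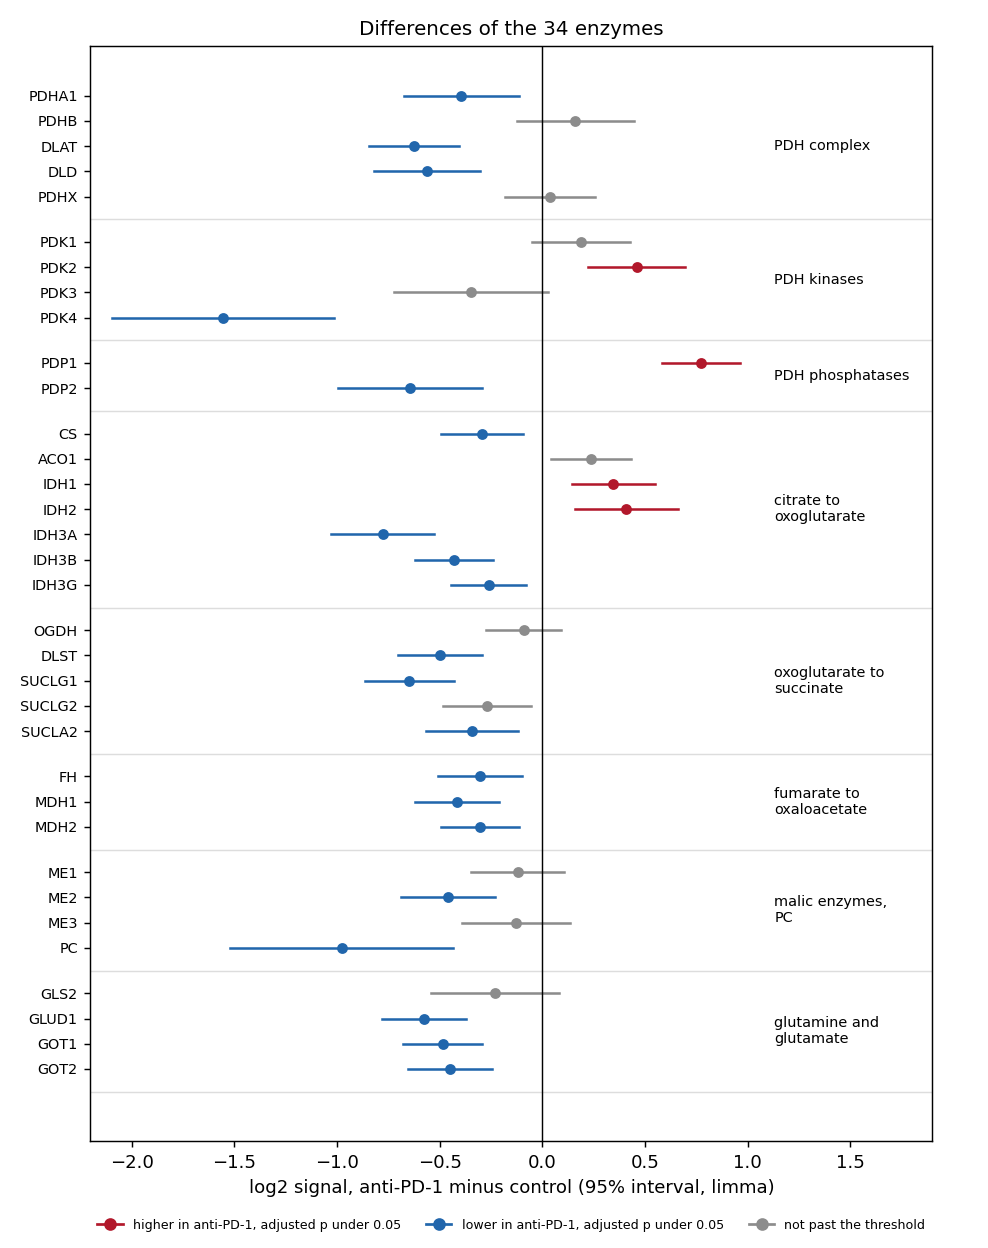
Difference in log2 signal, anti-PD-1 minus control, for each of the 34 enzymes, grouped by step, with points for the estimate and lines for the 95% interval from limma. Points left of 0 are lower in anti-PD-1 libraries. The 20 called lower spread over every group of enzymes, and the 4 called higher are PDK2, PDP1, IDH1 and IDH2.

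The pyruvate dehydrogenase complex was uneven, with 3 of 5 subunits lower and 2 not past the test. DLAT, the acetyltransferase core, had signals of 10.31, 10.30 and 10.12 in anti-PD-1 libraries, against 10.82, 10.87 and 10.92 in control libraries. It was 1.54-fold lower (-0.63 ± 0.09, SE, adjusted p = 0.0025). The lipoamide dehydrogenase DLD, which this complex shares with the oxoglutarate and branched-chain complexes, stood at 13.29, 13.38 and 13.31 in anti-PD-1 libraries, against 14.08, 13.80 and 13.78 in control libraries. Every anti-PD-1 library lay below every control library for both genes, and DLD was 1.47-fold lower (-0.56 ± 0.11, adjusted p = 0.00803). PDHA1, the alpha subunit of the decarboxylase, had signals of 12.93, 12.62 and 12.90 in anti-PD-1 libraries, against 13.34, 13.13 and 13.16 in control libraries. It passed narrowly (-0.39 ± 0.12, adjusted p = 0.0452) and did not pass without any 1 of the 6 libraries (adjusted p from 0.06 to 0.122). Its partner PDHB, the beta subunit, differed by 0.16 with a 95% interval from -0.13 to 0.45. PDHX, which tethers DLD to the core, differed by 0.04, with an interval from -0.18 to 0.26 and a change of sign on median centring of the arrays (-0.01).

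The 4 kinases that inactivate the complex did not move together, and neither did the 2 phosphatases that reactivate it. PDK4, a kinase induced by fasting and fatty acid use in muscle and other tissues, had signals of 6.96, 6.34 and 6.31 in anti-PD-1 libraries, against 8.39, 8.13 and 7.75 in control libraries. All anti-PD-1 libraries were below all control libraries, and the gene was 2.93-fold lower (-1.55 ± 0.23, adjusted p = 0.00244), a larger change than in 96.8% of all rows. PDK2, a broadly expressed kinase, went the other way. It read 12.77, 12.93 and 12.77 in anti-PD-1 libraries, against 12.32, 12.49 and 12.28 in control libraries, a 1.38-fold rise (0.46 ± 0.10, adjusted p = 0.0128). PDK1, a target of the hypoxia factor HIF1A, differed by 0.19 with an interval from -0.05 to 0.43, and its groups overlapped at 11.20 and 11.22. PDK3 differed by -0.35 (interval from -0.72 to 0.03), with 1 low anti-PD-1 library at 8.84 beside others at 9.34 and 9.36, against 9.44 to 9.66 in control libraries.

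PDP1, the calcium-stimulated catalytic phosphatase, had the smallest p of the 34. Its signals were 14.66, 14.58 and 14.60 in anti-PD-1 libraries, against 13.88, 13.83 and 13.81 in control libraries. The groups were far apart beside an SD of 0.04 in each, and the gene was 1.71-fold higher (0.77 ± 0.08, adjusted p = 0.0005). PDP2, the other catalytic phosphatase, had signals of 8.95, 8.51 and 8.51 in anti-PD-1 libraries, against 9.45, 9.18 and 9.27 in control libraries. It was 1.56-fold lower (-0.64 ± 0.15, adjusted p = 0.0167), a call lost without control replicate 1, anti-PD-1 replicate 2 or anti-PD-1 replicate 3, with an adjusted p of up to 0.0587. The table places PDK4 on chromosome 7 from 95583497 to 95596613 and PDP1 on chromosome 8 from 93857807 to 93926068, in a build that the conflict over species leaves unsettled.

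**Figure D2:**
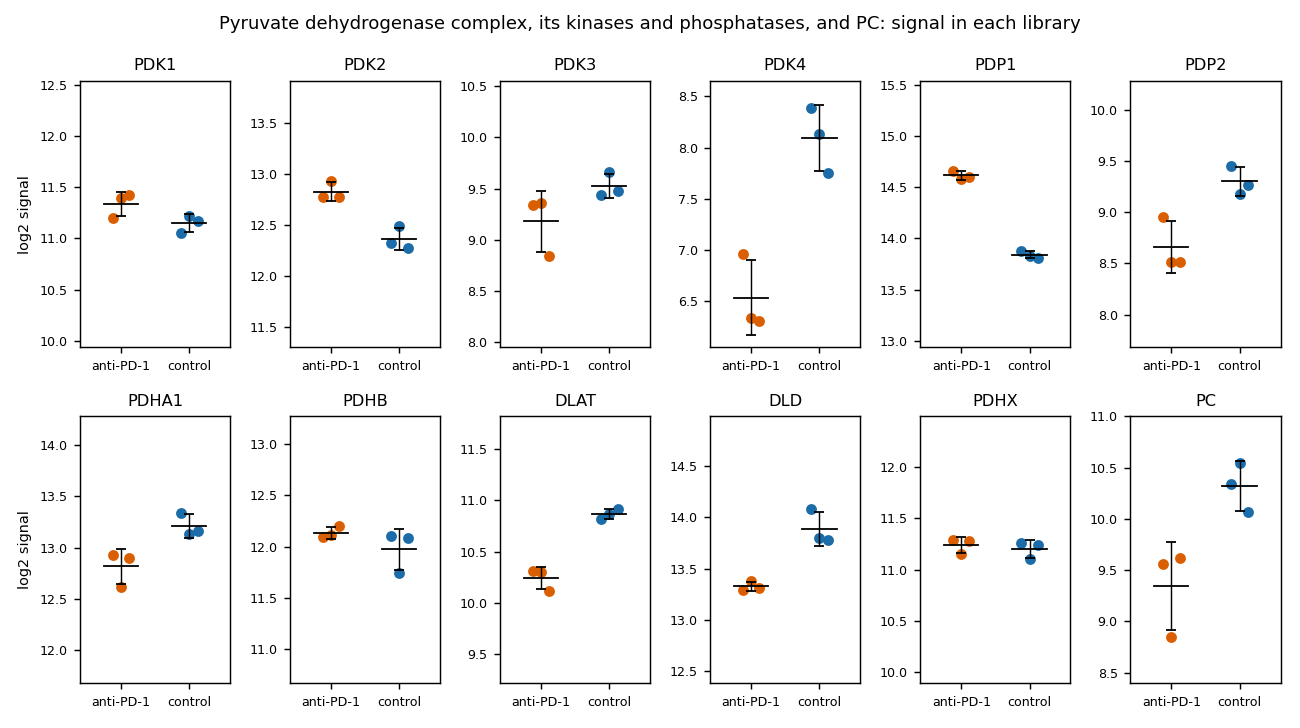
Log2 signal in each library for the 4 kinases, the 2 phosphatases, the 5 subunits of the pyruvate dehydrogenase complex and PC, with anti-PD-1 libraries in orange on the left and control libraries in blue on the right. Black lines give the mean and SD of 3 libraries, and every panel spans the same height in log2 units. PDK4, PDP2, DLAT, DLD, PDHA1, PC and, without passing the test, PDK3 lie lower in all anti-PD-1 libraries, PDK2 and PDP1 higher.

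Between citrate and oxoglutarate, the NAD-linked and NADP-linked isocitrate dehydrogenases went opposite ways. IDH3A, the catalytic subunit of the NAD-linked enzyme of the cycle, had signals of 13.41, 13.37 and 13.36 in anti-PD-1 libraries, against 14.32, 13.99 and 14.16 in control libraries. The lowest control library stood above the highest anti-PD-1 library, and the gene was 1.71-fold lower (-0.78 ± 0.11, adjusted p = 0.00175). IDH3B, a partner subunit, read 12.98, 12.94 and 12.93 in anti-PD-1 libraries, against 13.33, 13.38 and 13.43 in control libraries, and was 1.35-fold lower (-0.43 ± 0.08, adjusted p = 0.00694). IDH3G, the regulatory subunit, read 14.73, 14.72 and 14.77 in anti-PD-1 libraries, against 15.00 in each control library. Its small difference passed (-0.26 ± 0.08, adjusted p = 0.0434) but not without any 1 library (adjusted p from 0.0838 to 0.123).

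The NADP-linked enzymes IDH1, of the cytosol and peroxisomes, and IDH2, of mitochondria, were both higher. IDH1 stood at 12.71, 12.85 and 12.69 in anti-PD-1 libraries, against 12.40, 12.41 and 12.40 in control libraries, a 1.27-fold rise (0.35 ± 0.09, adjusted p = 0.0217). For IDH2 the signals were 12.21, 12.22 and 12.16 in anti-PD-1 libraries, against 11.66, 11.97 and 11.73 in control libraries, a 1.33-fold rise (0.41 ± 0.11, adjusted p = 0.0257). Neither gene's groups overlapped. IDH1 passed only without anti-PD-1 replicate 3, and IDH2 only without control replicate 2, among the 6 fits that left out 1 library, with an adjusted p of up to 0.0771 and 0.0788. ACO1, the cytosolic aconitase that also acts as an iron sensor, had 12.28, 12.19 and 12.25 in anti-PD-1 libraries, against 11.95 to 12.05 in control libraries. It did not pass (0.24 ± 0.08, adjusted p = 0.0691) although its groups did not overlap, and it did after quantile normalization (adjusted p = 0.0492). CS, which condenses acetyl-CoA with oxaloacetate, was lower in all anti-PD-1 libraries, at 15.51, 15.46 and 15.54, against 15.74, 15.88 and 15.77 in control libraries (-0.29 ± 0.09, adjusted p = 0.0395). That call was lost without any 1 library (adjusted p from 0.0563 to 0.12).

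From oxoglutarate to succinate all 5 genes had negative differences and groups that did not overlap, and 3 of 5 passed. Of all rows, 21.9% had groups that did not overlap in the lower direction, 29.8% passed in either direction and 15.1% passed as lower. Of the 5361 bright rows, 2090 did not overlap in the lower direction, and 50.1% passed, with 27.0% lower. Whether these 5 genes exceed those shares was not tested. SUCLG1, the alpha subunit shared by both succinyl-CoA ligases, had 12.17, 12.04 and 11.99 in anti-PD-1 libraries, against 12.64, 12.78 and 12.72 in control libraries, and was 1.57-fold lower (-0.65 ± 0.09, adjusted p = 0.00212). DLST, the succinyltransferase core of the oxoglutarate dehydrogenase complex, had 12.53, 12.50 and 12.62 in anti-PD-1 libraries, against 13.09, 13.08 and 12.97 in control libraries, and was 1.41-fold lower (-0.50 ± 0.09, adjusted p = 0.00507). OGDH, which decarboxylates oxoglutarate in the same complex, had 13.64, 13.60 and 13.60 in anti-PD-1 libraries, against 13.70, 13.69 and 13.72 in control libraries. Its difference of -0.09, with an interval from -0.27 to 0.09, did not pass.

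The beta subunits of the ligase set its nucleotide. SUCLA2, of the ADP-forming enzyme, had 10.55, 10.60 and 10.53 in anti-PD-1 libraries, against 10.91, 11.02 and 10.78 in control libraries (-0.34 ± 0.09, adjusted p = 0.0325). Without 1 library it passed in 1 of the 6 fits, the one without control replicate 3, and otherwise had an adjusted p of up to 0.0946. SUCLG2, of the GDP-forming enzyme, had 10.38, 10.42 and 10.23 in anti-PD-1 libraries, against 10.61, 10.66 and 10.57 in control libraries (-0.27 ± 0.09). It did not pass (adjusted p = 0.0646), but did on median centring (adjusted p = 0.0335).

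Fumarase and both malate dehydrogenases were lower in anti-PD-1 libraries, of which FH and MDH2 belong to the mitochondrial cycle. FH, which hydrates fumarate to malate, had 12.39, 12.44 and 12.37 in anti-PD-1 libraries, against 12.78, 12.62 and 12.71 in control libraries (-0.30 ± 0.09, adjusted p = 0.0361). MDH2, the mitochondrial malate dehydrogenase, had 14.99, 14.98 and 15.05 in anti-PD-1 libraries, against 15.30, 15.36 and 15.27 in control libraries (-0.30 ± 0.08, adjusted p = 0.0291). MDH1, the cytosolic form in the malate-aspartate shuttle, had 10.92 to 11.05 in anti-PD-1 libraries, against 11.36, 11.38 and 11.48 in control libraries (-0.42 ± 0.09, adjusted p = 0.0108). No anti-PD-1 library reached a control library for any of these genes. Of all rows 21.9% did not overlap in the lower direction, and 15.1% passed as lower. Above the 75th percentile of mean signal, 2090 of 5361 rows did not overlap in that direction, and 27.0% passed as lower. MDH1 passed without each library in turn. FH passed in 1 of the 6 fits, without control replicate 2 (adjusted p of up to 0.104 in the others), and MDH2 in 0 (adjusted p from 0.0598 to 0.0924).

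**Figure D3:**
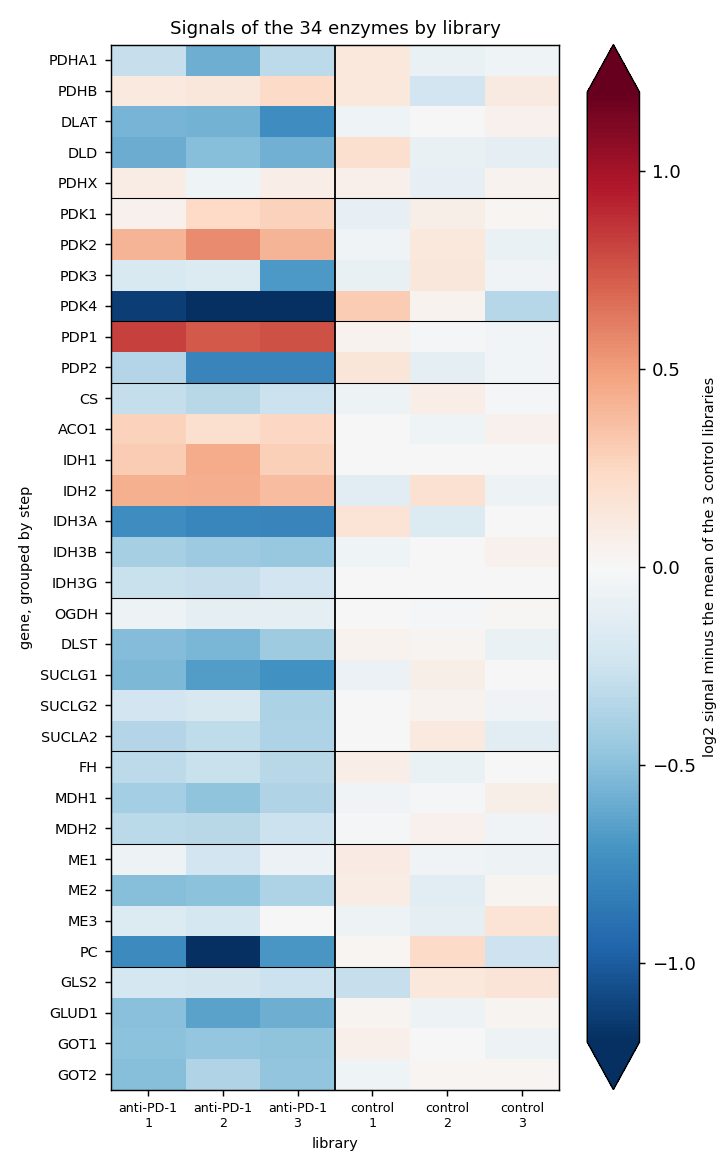
Log2 signal of each of the 34 enzymes in each library, minus the mean of the 3 control libraries for that gene, with anti-PD-1 libraries in the left columns and control libraries in the right ones. Blue is lower and red higher than the control mean, and the scale stops at 1.2 on either side. PDK4 is lower by more than this in anti-PD-1 replicates 2 and 3, and PC in anti-PD-1 replicate 2.

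Of the enzymes that join pyruvate to malate and oxaloacetate, PC and ME2 fell. PC, pyruvate carboxylase, had 9.56, 8.85 and 9.62 in anti-PD-1 libraries, against 10.34, 10.55 and 10.07 in control libraries. Anti-PD-1 replicate 2 was the lowest, the groups did not overlap, and the gene was 1.97-fold lower (-0.98 ± 0.23, adjusted p = 0.0179). The call was lost without control replicate 1 or 2, with an adjusted p of up to 0.0588, and the further row named PC, a circular RNA entry that the table marks non-coding, differed by -0.08 (adjusted p = 0.763). ME2, a mitochondrial malic enzyme, had 12.96, 12.98 and 13.10 in anti-PD-1 libraries, against 13.56, 13.35 and 13.51 in control libraries, and was 1.38-fold lower (-0.46 ± 0.10, adjusted p = 0.0113). ME1, the cytosolic NADP-linked malic enzyme, overlapped between groups, at 12.38, 12.21 and 12.37 in anti-PD-1 libraries and 12.54, 12.40 and 12.38 in control libraries, and differed by -0.12 (interval from -0.35 to 0.11). ME3, a mitochondrial NADP-linked form, overlapped as well and differed by -0.13 (interval from -0.39 to 0.14).

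Among the 4 glutamine and glutamate enzymes 3 fell. GLUD1, glutamate dehydrogenase, had 13.52, 13.38 and 13.43 in anti-PD-1 libraries, against 14.05, 13.96 and 14.05 in control libraries, and was 1.49-fold lower (-0.58 ± 0.09, adjusted p = 0.00258). Its near-identical copy GLUD2, found in humans and apes, was lower too (-0.48), and how signal is shared between their probes was not tested. The cytosolic aspartate aminotransferase GOT1 had 13.47, 13.50 and 13.48 in anti-PD-1 libraries, against 14.03, 13.96 and 13.91 in control libraries (-0.48 ± 0.08, adjusted p = 0.00438). Its mitochondrial counterpart GOT2 had 13.97, 14.12 and 14.01 in anti-PD-1 libraries, against 14.43, 14.51 and 14.51 in control libraries (-0.45 ± 0.09, adjusted p = 0.00769). These 3 genes passed without each library in turn. GLS2, the liver-type glutaminase, was the dimmest of the 34, with a mean signal of 5.43. It read 5.33, 5.32 and 5.28 in anti-PD-1 libraries and 5.26, 5.67 and 5.69 in control libraries, so that control replicate 1 overlapped the other group, and it did not pass (-0.23 ± 0.13, adjusted p = 0.253). Without control replicate 1 it did (-0.37, adjusted p = 0.0294).

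Paralogs that share a reaction were compared by the difference of their log2 signals within each array, over 5 pairs. With 3 libraries a group the smallest p that an exact permutation test can give is 0.1, so none could pass. ME1 minus ME2 was 0.34 higher in anti-PD-1 libraries, at -0.69 ± 0.10, than in control libraries, at -1.03 ± 0.09 (SD, n = 3 each, exact p = 0.1, adjusted p = 0.25). MDH1 minus MDH2 was lower by a difference of -0.11, with no overlap (exact permutation p = 0.1). The other pairs overlapped, with differences of -0.06 for IDH1 minus IDH2, -0.03 for GOT1 minus GOT2 and 0.07 for SUCLG2 minus SUCLA2 (exact permutation p = 0.6, 0.8 and 0.3).

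Neighbouring genes of these pathways were read from 9 lists, of which 88 of 90 genes were measured. Of the 88, 22 rose and 22 fell, and their median difference was 0.01. The share that passed was 50.0%, against 29.8% of all rows and 70.6% of the 34 enzymes. Many of the 88 are bright, and among all rows above the 75th percentile of mean signal 50.1% passed. By list, 41.7% passed of remaining cycle genes, 66.7% for phosphatase regulation and lipoylation and 64.7% of glutamine, glutamate and transaminase genes. Shares were 37.5% for glutamine transporters, 28.6% for carriers and 50% for acetyl-CoA use and gluconeogenesis. For branched-chain genes the share was 71.4%, for regulators 58.3% and for pyruvate import and lactate 0%. Whether any list exceeds the share of all rows was not tested. Leaving out each library in turn kept 35 of these 44 calls in all 6 fits.

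Among 12 remaining cycle genes 5 fell and 0 rose. SDHB and SDHD, an iron-sulfur and a membrane subunit of succinate dehydrogenase, differed by -0.63 and -0.55. SDHAF3, an assembly factor of that enzyme, had the largest difference (-0.70), and DHTKD1, an oxoadipate dehydrogenase subunit, differed by -0.46, a call lost without control replicate 2 or 3 or anti-PD-1 replicate 1 or 2 (adjusted p of up to 0.0828). SDHA (-0.13) and SDHC (-0.05) did not pass. Of 9 genes listed for phosphatase regulation and lipoylation, 5 fell. BOLA3, an assembly factor needed for lipoylation of the dehydrogenases above, differed by -0.95. LIAS, lipoic acid synthase, differed by -0.64, and the iron-sulfur assembly genes NFU1 and GLRX5 by -0.59 and -0.38. LIAS passed in 1 of the 6 fits that left out a library, the one without anti-PD-1 replicate 1 (adjusted p of up to 0.0844 in the others), and GLRX5 in 2, those without control replicate 3 or anti-PD-1 replicate 1 (up to 0.0799).

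Glutamine genes divided. Of 17 glutamine, glutamate and transaminase genes beyond the enzymes above, 7 rose and 4 fell. ASNS, asparagine synthetase, rose by 1.65 and GPT2, the mitochondrial alanine aminotransferase, by 1.32, while ASL, argininosuccinate lyase, fell (-0.75), as did GFPT2 (-0.66), GLUD2 (-0.48) and PPAT (-0.44), a call that PPAT lost without anti-PD-1 replicate 2 or 3 (adjusted p of up to 0.0654). PSAT1 of serine synthesis (0.88), ASS1 (0.81), glutamine synthetase GLUL (0.50) and GFPT1 (0.48) rose too. Among 8 glutamine transporters 3 rose and 0 fell, namely SLC38A1 (0.51), SLC38A2 (0.50) and SLC1A5 (0.36, adjusted p = 0.0225). SLC1A5 passed in 1 of the 6 fits that left out a library, without control replicate 2, and had an adjusted p of up to 0.0719 in the others.

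Carriers and exits differed by gene. Of 7 carriers for malate, aspartate, glutamate, citrate and dicarboxylates 2 fell and 0 rose, so that 28.6% passed, against 29.8% of all rows. SLC25A10, the mitochondrial dicarboxylate carrier, had 8.40, 7.84 and 8.42 in anti-PD-1 libraries, against 10.91, 11.37 and 10.82 in control libraries (-2.81 ± 0.21, adjusted p = 0.000118). SLC25A11, the oxoglutarate carrier, differed by -0.61. Of 10 genes of acetyl-CoA use and gluconeogenesis 4 rose, with PCK2, the mitochondrial phosphoenolpyruvate carboxykinase, at 1.5, ACSS2 at 0.96, HMGCS1 at 0.78 and ACACA at 0.39, and FASN fell (-0.35). ACACA was not called without control replicate 3 or anti-PD-1 replicate 1 or 2, nor FASN without control replicate 1 or 2 or anti-PD-1 replicate 2 or 3 (adjusted p of up to 0.0562 and 0.0941).

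Of 7 branched-chain amino acid genes, whose dehydrogenase is built like that of pyruvate, 4 rose and 1 fell. BCAT1, the cytosolic branched-chain aminotransferase, rose by 1.99 (adjusted p = 2.9e-05), PPM1K, the phosphatase that activates the complex, by 0.85, and its subunits BCKDHB and DBT by 0.78 and 0.45. BCKDK, the kinase that inactivates it, fell (-0.78). None of 6 genes for pyruvate import, lactate dehydrogenase and lactate transport passed in limma (0 past the adjusted threshold). The largest of their differences was MPC1, a subunit of the pyruvate carrier, at 0.23 (adjusted p = 0.195). LDHA and LDHB each stood at -0.16. Of 12 transcriptional regulators 3 rose and 4 fell, among them EPAS1 at 0.97, ATF4, whose targets include ASNS, at 0.78, and PPARA at 0.56, against NRF1 at -0.70, PPARGC1B at -0.60, PPARD at -0.57 and TFAM at -0.42. PPARGC1B was not called without control replicate 1 or 2 or anti-PD-1 replicate 2 or 3 (adjusted p of up to 0.0685).

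**Figure D4:**
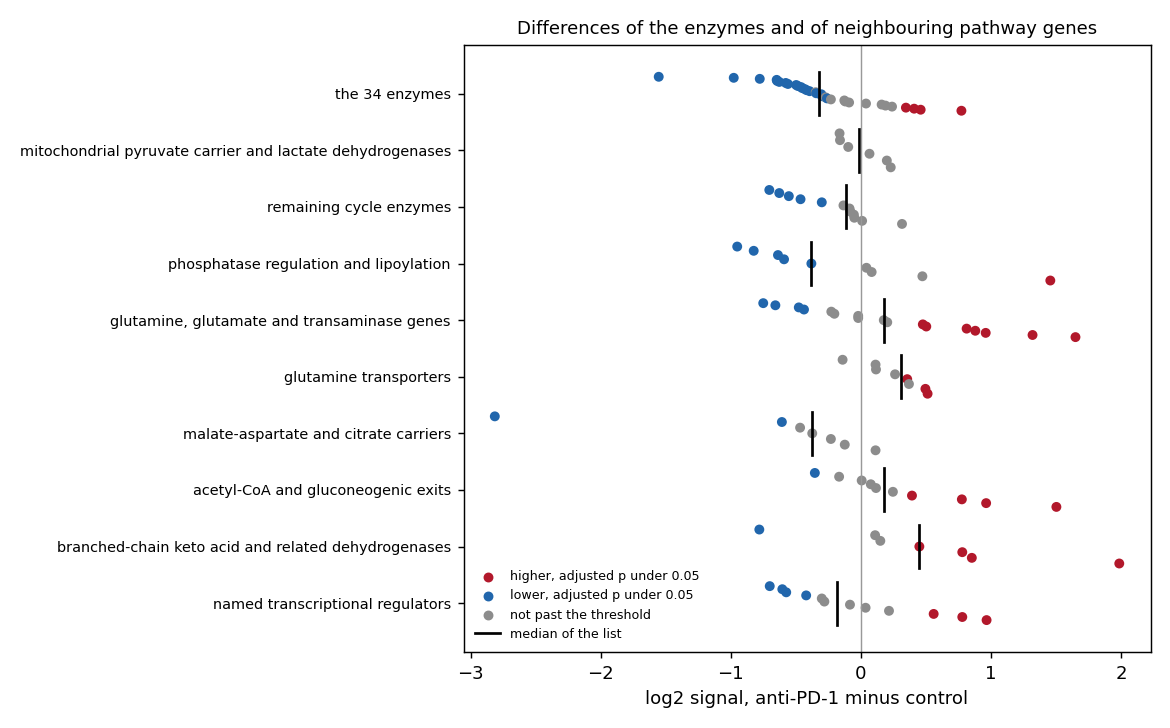
Difference in log2 signal, anti-PD-1 minus control, for the 34 enzymes in the top row and for 9 lists of neighbouring genes under it, 1 point per gene, with the median of each list as a black line. Red points are higher and blue points lower in anti-PD-1 libraries at an adjusted p under 0.05, and grey points did not pass. The enzymes lie mostly left of 0 with a median of -0.32. Lists for glutamine genes, glutamine transporters, exits and branched-chain genes have medians of 0.18, 0.31, 0.18 and 0.45. Medians are -0.38 for phosphatase regulation and lipoylation, -0.37 for carriers and -0.18 for regulators. Remaining cycle genes have -0.11, and genes of pyruvate import and lactate -0.015.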

How the data were processed

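The authors deposited log2 signals, 1 per array row; the file headers name SST-RMA as the summary. The submitters' processing notes list Transcriptome Analysis Console without a version. The deposited table also holds log2 averages, SDs and a signed fold change (both treated as a score) and p-values with false discovery rates. Of 22206 identifiers, 758 had no values and were not used. The workbook and the series value table held the same signals (largest difference 0). Library medians lay between 7.71 and 7.77, and precision is limited by 6 arrays and signals rounded to 2 decimals. RNA input was 250 ng, per the labels.

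Groups followed the sample labels, and control was subtracted from anti-PD-1. All 21448 rows entered one 2-sided limma fit (version 3.58.1, R 4.3.3, lmFit then eBayes) with group as sole term; p-values were adjusted across the whole table by Benjamini-Hochberg, with calls made under 0.05. Alternatives covered normalization, dim rows, rows per symbol, prior variance, array weights, thresholds, a replicate block, each library left out and exchanged group names. The fit was tested on simulated data. Replicate numbers did not pair libraries (correlations of deviations 0.01, -0.02 and 0.01). The enzymes, the companion lists and the alternatives were chosen with earlier results of these data known. Every enzyme is named. Companion genes are named where past the threshold with a difference of at least 1, where largest in their list, or where a count of 5 or fewer rests on them, and markers where past the threshold, except that the 8 proliferation markers are given as a list. Some companion genes that enter the counts are not reported here by name. Other companion genes, GLUL, PSAT1, ASS1, GFPT1, SDHA, SDHC, LDHA and LDHB among them, were named after their values were seen.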

Additional observations from a re-analysis of the deposited data

How the results depend on the processing

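Of 99 counts recomputed under the alternatives, 78 stayed within 1.5 times. Of 644 values of single enzymes, the exchange of names aside, 545 kept direction and side of the threshold, 88 lost the call, 9 gained it and 2 changed sign. Both sign changes were PDHX, at -0.0083 on median centring and from -0.01 to 0.085 without each library. Leaving out 1 library gave 15 to 17 enzymes past the threshold (24 with all), 2 to 3 higher (4 with all) and 13 to 15 lower (20 with all), with 4901 to 5452 rows and 35 to 40 companion genes. Fewer samples enter these fits by construction. With a replicate block, which the numbers do not support as pairs, 16 enzymes passed, 2 higher, and 5363 rows. A 1.5-fold limit, stricter by construction, gave 7 enzymes (1 higher, 6 lower), 27 companion genes and 3705 rows, and an adjusted p under 0.01 gave 11 enzymes (1 higher, 10 lower) and 3870 rows. Median centring moved the median of all rows from 0.01 to -0.04. GOT1 minus GOT2 ranged from -0.075 to 0.025 without each library.

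Exchange of the group names turns every sign, so that 20 enzymes are higher and 4 lower. Differences then are -0.04 for PDHX, -0.16 for PDHB, -0.19 for PDK1, -0.24 for ACO1, -0.35 for IDH1, -0.41 for IDH2, -0.46 for PDK2 and -0.77 for PDP1. The others become 0.09 (OGDH), 0.12 (ME1), 0.13 (ME3), 0.23 (GLS2), 0.26 (IDH3G), 0.27 (SUCLG2), 0.29 (CS), 0.30 (FH, MDH2), 0.34 (SUCLA2), 0.35 (PDK3), 0.39 (PDHA1), 0.42 (MDH1), 0.43 (IDH3B), 0.45 (GOT2), 0.46 (ME2), 0.48 (GOT1), 0.50 (DLST), 0.56 (DLD), 0.58 (GLUD1), 0.63 (DLAT), 0.64 (PDP2), 0.65 (SUCLG1), 0.78 (IDH3A), 0.98 (PC) and 1.55 (PDK4), and the pairs 0.0633 (IDH1 minus IDH2), 0.11 (MDH1 minus MDH2), 0.0333 (GOT1 minus GOT2), -0.34 (ME1 minus ME2) and -0.0733 (SUCLG2 minus SUCLA2).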
